A study of Arabidopsis thaliana with 18 samples.

Results

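HCT, AT5G42830 and AT2G25150 are 3 genes of the BAHD acyltransferase family of Arabidopsis thaliana. They were chosen by name, and each was measured by a single probe set that the annotation assigned to that gene alone. They are 3 of 13286 genes with a probe set of their own, and 3 of 47 such genes on a list of the family written from general knowledge. The choice was made with earlier results of the same arrays known, and which comparisons it rested on is not recorded. For the 3 genes, comparisons with oxMYB72 were treated as used and are described with no test. Tests are given where Col-0 and myb72-2 alone were compared, but these too may not be independent of the choice.

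The arrays carried RNA from roots of 19-day-old seedlings in 6 groups of 3: the accession Col-0, the mutant myb72-2 in the Col-0 background, and oxMYB72, each untreated or colonized. OxMYB72 carries FLAG-tagged MYB72 under the 35S promoter, a viral promoter active in most plant tissues, in the myb72-2 background, so the genotype it differs from by the transgene is myb72-2 and not Col-0. Colonized seedlings had received 10 µl of a suspension of Pseudomonas fluorescens WCS417, a beneficial root bacterium, at an age of 17 days, 2 days before the harvest, and all seedlings grew with 50 µM Fe(III)EDTA. The annotation names no probe set as MYB72, and the genotypes could therefore not be checked by the level of that gene. The labels do not say whether oxMYB72 is 1 line or several, nor whether replicates were grown apart, so the p-values stand for the spread over these arrays, which may be technical.

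BAHD acyltransferases transfer an acyl group from a coenzyme A thioester to an alcohol or an amine, and plants use them to make lignin precursors, phenolic amides, wall-bound esters and acylated pigments. HCT joins a hydroxycinnamoyl group to shikimate or quinate, a step on the way from p-coumarate to the lignin precursors and to other caffeoyl and feruloyl compounds. MYB72 is a transcription factor of roots known for its part in the systemic resistance that WCS417 primes and in the response to iron shortage. For AT5G42830 and AT2G25150 the gene table gave no role beyond the locus.

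The deposited values are log2 expression values after RMA, and a difference of 1 between them is a doubling on the linear scale. Array medians lay between 6.29 and 6.41, and arrays of a group correlated at 0.991 to 0.998 across probe sets. Of the root markers listed 1 of 12 had a named probe set, EXPA7, a root hair expansin, which exceeded at least 77.6% of probe sets in each group. Of the green tissue markers 1 of 10 had one, RCA (Rubisco activase), whose group means lay between 6.84 and 7.95. These means exceeded 57% to 73.4% of probe sets. RCA fell with WCS417 in Col-0 (-0.86), myb72-2 (-1) and oxMYB72 (-0.55), with adjusted p of 2.17e-05, 2.59e-06 and 0.00225 in limma. Without bacteria RCA was lower in oxMYB72 than in Col-0 by -0.49 (adjusted p = 0.0116, with 7.41% of probe sets called) and differed from myb72-2 by -0.38 (adjusted p = 0.0626), in the comparisons where HCT and AT5G42830 were far higher. The RCA call against Col-0 was lost without any 1 of 3 arrays (0.055 to 0.0614). EXPA7 was higher with WCS417 by 0.51 in myb72-2 and 0.52 in oxMYB72 and by an uncalled 0.4 in Col-0 (adjusted p = 0.0925). Both calls were lost without any 1 of 3 arrays, and the oxMYB72 value dropped to 0.28 without oxMYB72 control replicate 1. For actin, the 3′ probe set exceeded the 5′ one, as a measure of RNA integrity, by a mean of 1.21 and 1.3 in untreated and colonized Col-0, 1.27 and 1.33 in myb72-2, and 1.19 and 1.33 in oxMYB72. The part of these shifts in the results below was not tested. In whole roots, more cells of a type and more RNA per cell cannot be told apart.

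The 3 genes had 3 different patterns over the groups. HCT was bright everywhere, between 10.65 and 11.09 in the group means of Col-0 and myb72-2, and reached 13.12 and 12.67 in untreated and colonized oxMYB72. AT5G42830 rose with WCS417 in Col-0 and in myb72-2, and stood at or above that colonized level in oxMYB72 already without bacteria. AT2G25150 was low in all untreated roots and rose with WCS417 in Col-0 and in myb72-2, with values in colonized oxMYB72 inside a similar range. Across the 18 arrays HCT and AT5G42830 correlated at 0.69, AT5G42830 and AT2G25150 at 0.48, and HCT and AT2G25150 at 0.05, as a description of arrays that share their groups.

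**Figure D1:**
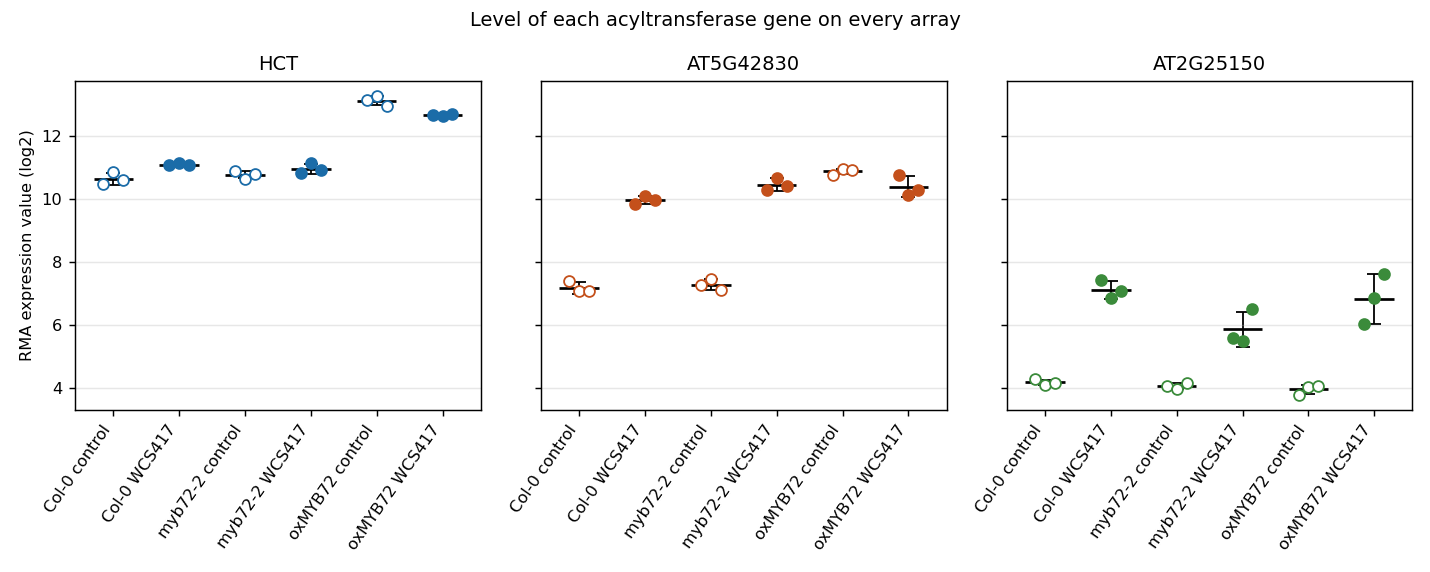
RMA log2 value of HCT, AT5G42830 and AT2G25150 on each of the 18 arrays, with open points for untreated and filled points for colonized roots, bars at the group mean and whiskers of 1 SD (n = 3). HCT is highest in both oxMYB72 groups, AT5G42830 is low only in untreated Col-0 and myb72-2, and AT2G25150 is low in all 3 untreated groups.

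HCT stood at 10.48, 10.85 and 10.62 in untreated Col-0 and at 11.07, 11.13 and 11.08 in colonized Col-0. The groups did not overlap, and HCT rose with WCS417 by 0.44 ± 0.11 (SE), a 1.36-fold change (limma, adjusted p = 0.009). This call rests on a small difference: without Col-0 control replicate 1 it was 0.35 with an adjusted p of 0.0637. In myb72-2 the values were 10.89, 10.65 and 10.8 without bacteria and 10.83, 11.14 and 10.94 with them. These groups overlapped, and the difference of 0.19 ± 0.11 was not called (adjusted p = 0.254; 95% interval -0.04 to 0.42).

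Between myb72-2 and Col-0, HCT differed by 0.13 ± 0.11 without bacteria (adjusted p = 1; 95% interval -0.11 to 0.36) and by -0.12 ± 0.11 with them (adjusted p = 0.893; interval -0.36 to 0.11). The difference between the WCS417 effects in the 2 genotypes was -0.25 ± 0.16 and was not called (limma, adjusted p = 1). HCT in the mutant thus lay within those intervals of its Col-0 level.

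In oxMYB72 the HCT values were 13.14, 13.26 and 12.96 without bacteria and 12.66, 12.63 and 12.71 with them. All 6 exceeded every array of Col-0 and myb72-2, and the untreated oxMYB72 arrays were the highest of all 18. Untreated oxMYB72 lay above myb72-2 by 2.34 ± 0.11 (5.07-fold) and above Col-0 by 2.47 ± 0.11. With bacteria the margins were 1.7 ± 0.11 over myb72-2 (3.25-fold) and 1.57 ± 0.11 over Col-0. The colonized oxMYB72 arrays lay below the untreated ones by -0.45 ± 0.11 with no overlap. At these levels HCT exceeded 99.8% of all probe sets in untreated and 99.6% in colonized oxMYB72, against 96.1% in untreated Col-0.

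AT5G42830 stood at 7.39, 7.08 and 7.08 in untreated Col-0 and at 9.85, 10.1 and 9.98 with WCS417. The rise of 2.79 ± 0.15, a 6.94-fold change, was called in limma (adjusted p = 1.38e-11). In myb72-2 it went from 7.28, 7.46 and 7.13 to 10.29, 10.67 and 10.41, a rise of 3.17 ± 0.15 or 8.99-fold (adjusted p = 2.09e-12). In both genotypes every colonized array exceeded every untreated one by more than 2 units of log2.

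The mutation was not seen to reduce this response. The WCS417 effect was larger in myb72-2 than in Col-0 by 0.37 ± 0.21, which was not called (adjusted p = 1; 95% interval -0.06 to 0.8). Colonized myb72-2 roots had higher AT5G42830 than colonized Col-0 roots on every array, by 0.48 ± 0.15, but the difference failed the correction over all probe sets (unadjusted p = 0.00349, adjusted p = 0.361 in limma). Untreated, the genotypes differed by 0.11 ± 0.15 (adjusted p = 1).

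In untreated oxMYB72 roots AT5G42830 stood at 10.77, 10.94 and 10.91. These 3 values exceeded every array of colonized Col-0 (at most 10.1) and of colonized myb72-2 (at most 10.67). The margin over untreated roots was 3.59 ± 0.15 for myb72-2 (12-fold) and 3.69 ± 0.15 for Col-0 (12.9-fold). With WCS417 the oxMYB72 arrays read 10.77, 10.12 and 10.3, a mean difference of -0.48 ± 0.15 from untreated. The highest colonized array, at 10.7724, and the lowest untreated one, at 10.7731, were almost level. Among colonized roots oxMYB72 differed from myb72-2 by -0.06 ± 0.15 with overlapping arrays, and from Col-0 by 0.42 ± 0.15. Without oxMYB72 WCS417 replicate 1 the second difference was 0.23, and without replicate 2 the first was 0.08. The difference between the WCS417 effects in oxMYB72 and in Col-0 was -3.27 ± 0.21.

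AT2G25150 stood at 4.29, 4.11 and 4.19 in untreated Col-0, at 4.09, 3.97 and 4.18 in untreated myb72-2 and at 3.79, 4.03 and 4.08 in untreated oxMYB72. These means exceeded only 28.6%, 27.5% and 26.4% of probe sets, and RMA values carry no call of whether a transcript was detected. With WCS417 the Col-0 arrays read 7.43, 6.87 and 7.07, a rise of 2.93 ± 0.27 or 7.64-fold (limma, adjusted p = 9.41e-08). The myb72-2 arrays read 5.61, 5.51 and 6.51, a rise of 1.79 ± 0.27 or 3.47-fold (adjusted p = 5.45e-05). Since RMA compresses differences near the background, both folds may be understated.

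The colonized myb72-2 arrays all lay below the colonized Col-0 arrays, by -1.25 ± 0.27, and the difference missed the threshold (unadjusted p = 0.000168, adjusted p = 0.0894 in limma). The call turned on small changes: the difference was called without myb72-2 WCS417 replicate 3, at 6.51 (-1.57, adjusted p = 0.0101), and with the replicate number as a block (-1.25, adjusted p = 0.0482). In the other direction, leaving out single arrays took the difference to -1.07 and the adjusted p in limma up to 0.336. The WCS417 effect was smaller in myb72-2 by -1.14 ± 0.39, which was not called (unadjusted p = 0.00777, adjusted p = 1; 95% interval -1.94 to -0.33). Without bacteria the genotypes differed by -0.11 ± 0.27 (adjusted p = 1).

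In colonized oxMYB72 the AT2G25150 arrays read 6.03, 6.87 and 7.62, spanning the range of all other colonized arrays except the lower myb72-2 pair. The mean lay above untreated oxMYB72 by 2.87 ± 0.27 (7.32-fold) and above colonized myb72-2 by 0.96 ± 0.27, with overlapping arrays in the second case and 0.57 without oxMYB72 WCS417 replicate 3. It lay -0.29 ± 0.27 from colonized Col-0, a value that was 0.12 without oxMYB72 WCS417 replicate 1 and -0.68 without replicate 3. Untreated oxMYB72 differed from untreated myb72-2 by -0.11 ± 0.27. In oxMYB72, AT2G25150 was thus high with bacteria and low without them, whereas HCT and AT5G42830 were high in both.

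AT2G25150 was also the most uneven of the 3 between replicates once bacteria were present. Its SD was 0.09, 0.11 and 0.15 in untreated Col-0, myb72-2 and oxMYB72, and 0.28, 0.55 and 0.8 in the colonized groups. The SD in colonized myb72-2 exceeded that of 99.2% of probe sets, whose median was 0.16, and in colonized oxMYB72 that of almost all (median 0.14). The SE of 0.27 in each comparison of 2 groups came from a spread shared by all 6 groups (pooled SD 0.42). For AT2G25150 it is therefore too large among untreated groups and too small where colonized myb72-2 or oxMYB72 was compared. Its p-values in those comparisons share this limit. HCT had an SD of 0.03, 0.16 and 0.04 in colonized Col-0, myb72-2 and oxMYB72. AT5G42830 had 0.13, 0.19 and 0.34 in the same groups, the last above that of 94.5% of probe sets.

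**Figure D2:**
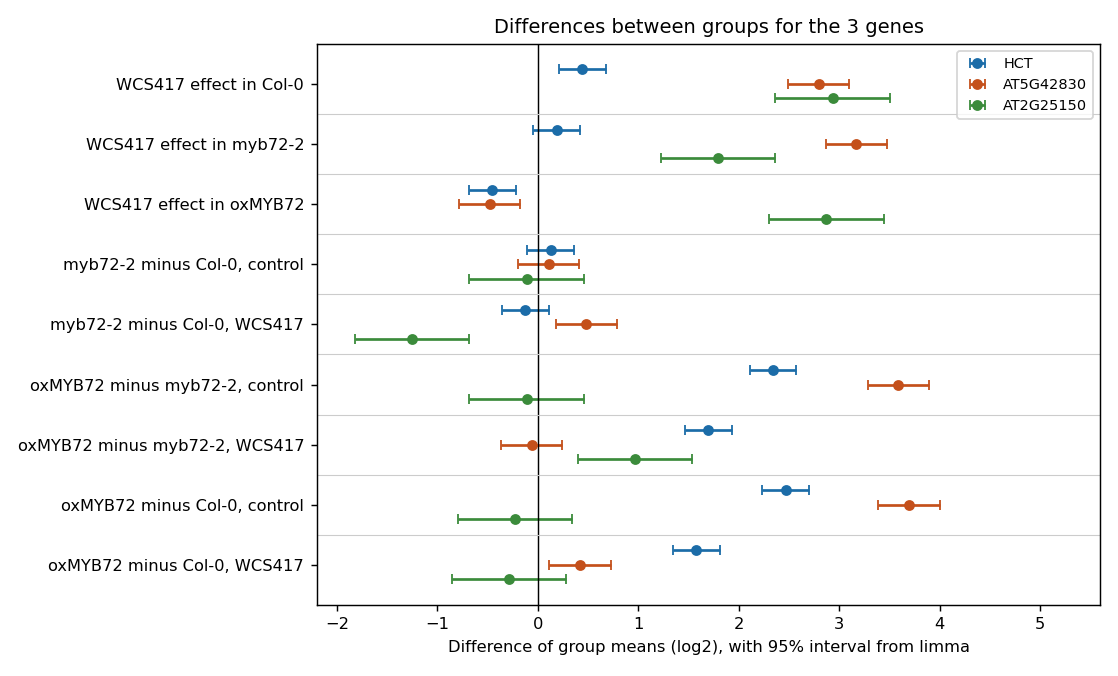
Differences of group means on the log2 scale for HCT, AT5G42830 and AT2G25150 in 9 comparisons of 2 groups, with 95% intervals from limma over all 18 arrays. Comparisons with oxMYB72 were treated as used in the choice of the genes, so their intervals are a description and no test. The WCS417 effect of AT5G42830 is 2.79 in Col-0, 3.17 in myb72-2 and -0.48 in oxMYB72, while that of AT2G25150 is above 1.7 in all 3 genotypes.

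In order of level, untreated Col-0, untreated myb72-2, colonized myb72-2 and colonized Col-0 came first for HCT, and neighbours among these 4 overlapped. Colonized and then untreated oxMYB72 followed, each clear of its neighbours. For AT5G42830 the untreated Col-0 and myb72-2 groups overlapped at the bottom, and untreated oxMYB72 stood at the top. Between them colonized Col-0 was clear of its neighbours, and colonized oxMYB72 and myb72-2 overlapped. For AT2G25150 untreated oxMYB72, myb72-2 and Col-0 each overlapped the next, although the first lay wholly below the last. Clear above them, colonized myb72-2, oxMYB72 and Col-0 each overlapped the next.

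All 3 genes were called higher with WCS417 in Col-0, where 6.38% of 22746 probe sets were called higher (adjusted p under 0.05 in limma). In myb72-2 the call covered 2 of the 3, with 8.52% of probe sets called higher. The choice of the 3 genes may have rested on such values, so these counts are a description and no measure of enrichment. Between myb72-2 and Col-0 limma called 0 of 3 without bacteria, with 0 at an unadjusted p under 0.05, and 0 of 3 with bacteria, with 2 at an unadjusted p under 0.05. The background was 0.0396% and 0.127% of probe sets. The difference between the WCS417 effects in myb72-2 and Col-0 was called for 0 of 3 (1 at an unadjusted p under 0.05) and for 0.0176% of probe sets.

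Beside the 3 genes, 44 of the 63 listed family members were measured by probe sets of their own, 45 in all, because GLC had a pair. With WCS417 in Col-0, 4 of the 45 were called higher and 6 lower, a share of 22.2% against 15.3% of all probe sets. The median difference was 0.0039 for the family and 0.0009 for all probe sets. Of the 45, 26 (57.8%) were called with WCS417 in no genotype, against 68.4% of all probe sets. In myb72-2, 5 were higher and 8 lower (28.9% against 21.4%), and in oxMYB72 6 were higher and 7 lower (28.9% against 19.3%). After median centring the oxMYB72 count was 3 higher and 8 lower. Without oxMYB72 control replicate 2 the higher calls there were 3, without oxMYB72 control replicate 1 the lower calls were 4, and in myb72-2 the higher calls were 3 and 9 without control replicate 1 and WCS417 replicate 3.

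AT5G47980 and AT1G27620 rose with WCS417 in all 3 genotypes, which is 4.44% of the 45 probe sets against 3.06% of all. AT5G47980 went from 6.49 ± 0.14 to 8.14 ± 0.16 in Col-0 (SD, n = 3), a rise of 1.65, and rose by 1.58 in myb72-2 and 2.11 in oxMYB72. Like AT2G25150 it was not higher in untreated oxMYB72 than in myb72-2 (-0.34, adjusted p = 0.276). AT1G27620 rose by 0.47 in Col-0, 0.5 in myb72-2 and 0.4 in oxMYB72. Another 5 family members (11.1%, against 4.99% of all probe sets) fell in all 3 genotypes, led by AT1G78990, which went from 7.85 ± 0.08 to 6.21 ± 0.04 in Col-0 and changed by -1.64, -1.34 and -1.47 in Col-0, myb72-2 and oxMYB72. The others were AT5G47950, AT5G07860, AT5G07870 and AT1G31490. SDT and SHT, annotated as acyltransferases of spermidine, a polyamine, were not among these. SDT was called in no genotype (-0.2, 0 and 0.31), and SHT was called lower in myb72-2 (-0.35, adjusted p = 0.0117), with uncalled values of 0.03 in Col-0 and 0.06 in oxMYB72. The difference of the SHT effect between myb72-2 and Col-0 was -0.37 ± 0.14 and was not called (adjusted p = 1).

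In untreated oxMYB72 against myb72-2, 3 of the 45 were called higher and 2 lower (11.1%, against 6.81% of all probe sets). AT5G07080 was higher by 1.47 ± 0.13, AT1G28680 by 1 ± 0.11 and AT3G29635 by 0.61 ± 0.13, with adjusted p of 8.01e-08, 2.16e-06 and 0.00398 in limma. The 2 lower ones, BAT1 and AT5G39090, lost their calls without single arrays, and the lower count fell to 0 without oxMYB72 control replicate 1 or myb72-2 control replicate 1, and to 1 without any other of the 6 arrays. AT5G07080 stood at 8.3 ± 0.19 in myb72-2 and 9.78 ± 0.24 in oxMYB72 (SD, n = 3). With bacteria 4 were higher and 3 lower (15.6%, against 5.52%), and AT5G07080 was still higher by 1.01 and AT1G28680 by 0.49. Without myb72-2 WCS417 replicate 3 the lower count was 6, and without oxMYB72 WCS417 replicate 2 it was 1. When only the arrays compared entered limma, 1 was higher and 0 lower. Against Col-0, oxMYB72 had 3 higher and 4 lower without bacteria (7.41% of all probe sets called) and 5 higher and 3 lower with them (4.26%). AT5G07080 led the higher ones in the first case (1.43) and in the second (1), and kept its call under each alternative. AT1G24420, AT1G24430 and AT4G15390, called with bacteria, each lost the call with only the arrays compared (adjusted p = 0.105, 0.113 and 0.0633) and without oxMYB72 WCS417 replicate 1 or 2. AT1G24420 and AT1G24430 also lost it without Col-0 WCS417 replicate 1 (0.12 and 0.134) or 2 (0.158 and 0.0544). AT1G24430 lost it after a second quantile normalization too (0.0551). AT5G47980, called lower without bacteria (-0.55), lost the call under median centring (0.0679) and without any 1 of 4 arrays. It also lost the call after a second quantile normalization (0.0665) and with the replicate block (0.0502). In that untreated comparison AT3G29635 and BAT1 lost their calls without oxMYB72 control replicate 1 (0.051 and 0.079). AT4G15390 lost its call there without Col-0 control replicate 1 (0.0518). Between myb72-2 and Col-0 limma called 0 of 45 without bacteria, with 0 at an unadjusted p under 0.05, and 0 with bacteria, with 4 at an unadjusted p under 0.05.

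**Figure D3:**
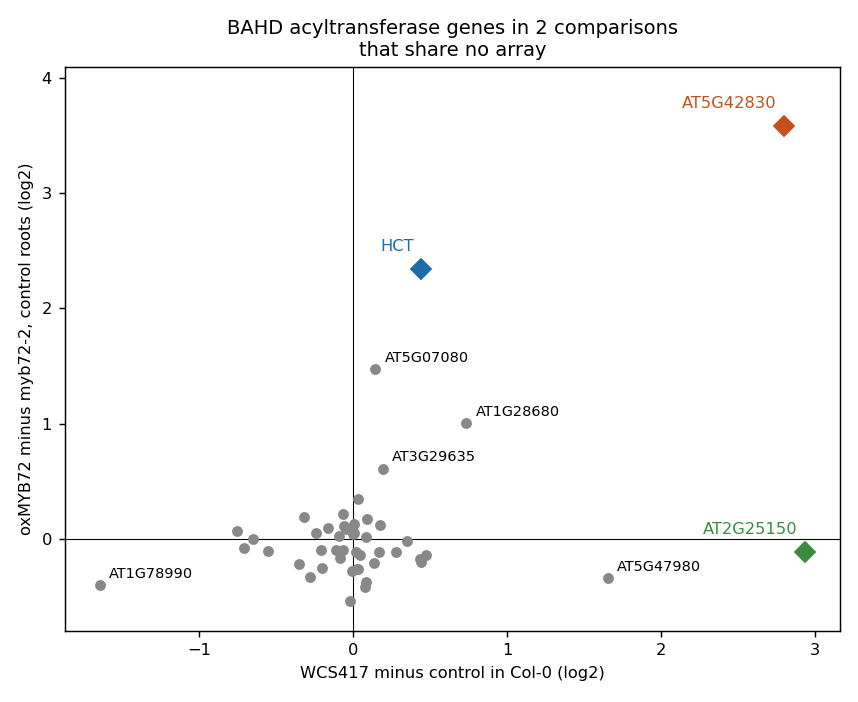
Difference of group means (log2) of the 45 other BAHD probe sets (grey points) and of the 3 genes (diamonds), with the WCS417 effect in Col-0 on the x axis and untreated oxMYB72 minus untreated myb72-2 on the y axis. AT5G42830 lies far out on both axes (2.79 and 3.59), HCT mainly on the y axis (2.34) and AT2G25150 mainly on the x axis (2.93); the diamonds were chosen with such values known.

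These 2 comparisons share no array, but both used the variance that limma estimated for each probe set from all arrays together. Their calls are therefore not independent, and the overlap is a description and no test. Of 804 probe sets higher in untreated oxMYB72 than in myb72-2, 208 (25.9%) also rose with WCS417 in Col-0. These 208 are 14.3% of the 1452 that rose there, which in turn are 6.38% of all probe sets. The part of the shared variance in this overlap was not tested. Among the 45 other BAHD probe sets the overlap was 1 gene, AT1G28680, out of 3 and 4. AT1G28680 rose with WCS417 by 0.73 ± 0.11 in Col-0 and by 0.52 ± 0.11 in myb72-2, whereas in oxMYB72 it stood at 10.28 ± 0.09 without and 10.29 ± 0.002 with bacteria (SD, n = 3). The WCS417 effect was smaller in oxMYB72 than in Col-0 by -0.73 ± 0.16 (adjusted p = 0.0145 in limma), a call lost without Col-0 control replicates 2 (0.0555) or 3 (0.0565) or oxMYB72 control replicate 2 (0.0569). It was the 1 BAHD probe set of 45 called in that comparison of responses, in which 1.75% of all probe sets were called. In the comparison of responses between oxMYB72 and myb72-2, with 2.78% called, the 1 was BAT1.

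Little else of the surrounding pathways was named on the array. Of 18 listed enzymes of the general phenylpropanoid and monolignol route only CCR2, a cinnamoyl-CoA reductase, had a probe set of its own. CCR2 was lower with WCS417 in oxMYB72 (-0.63 ± 0.12, adjusted p = 0.000552 in limma), and its call in Col-0 (-0.35, adjusted p = 0.0483) was lost without any 1 of the 6 arrays (0.0544 to 0.209). The Col-0 call was also lost after a second quantile normalization (0.053), under median centring (0.0538) and with only the arrays compared (0.0538). In untreated oxMYB72 CCR2 differed from myb72-2 by 0.23 ± 0.12 and was not called, beside the HCT excess of 2.34 there. SAMDC and SAMDC2, decarboxylases of polyamine synthesis, were the 2 measured of 14 polyamine genes, DFR, the reductase of dihydroflavonols, was the 1 measured of 7 flavonoid genes, and limma called none of these in any of the 12 comparisons, with at most 1 gene of either list at an unadjusted p under 0.05. None of 13 suberin genes had a named probe set.

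Of the 4 nearest protein-coding genes of HCT (2 on each side, in the order of the gene table) 2 had a named probe set, of AT5G42830 3, and of AT2G25150 0. Their differences in the 9 comparisons of 2 groups stayed between -0.56 and 0.27 around HCT and between -0.59 and 0.39 around AT5G42830. The excess of both genes in oxMYB72 was therefore not shared by the measured neighbours.

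Genes with the most alike pattern were sought among 689 probe sets of a single gene whose group means spanned at least 1 on the log2 scale, by Pearson correlation over the 18 arrays, which share their 6 groups. For HCT the first was AT5G07080 (r = 0.98), itself on the BAHD list, followed by AT1G06550 (0.97), AT5G24760 (0.97), AT5G17010 (0.96) and AT1G12130 (0.96). All 5 were highest in untreated oxMYB72, above myb72-2 by 1.27 to 2.85, and all 5 had a lower mean in colonized than in untreated oxMYB72. AT1G06550 stood at 8.57 in untreated myb72-2, 10.7 in untreated oxMYB72 and 10.16 in colonized oxMYB72. Within groups the correlations with HCT ran only from -0.27 to 0.45, so the likeness lay in the group means.

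For AT5G42830 they were AT4G16260 (r = 0.96), AT5G53990 (0.95), AT3G23570 (0.95), AT1G26420 (0.93) and AT3G13610 (0.93). AT3G13610 is F6'H1, the feruloyl-CoA hydroxylase of coumarin synthesis. It stood at 10.92 in untreated Col-0, 12.94 in colonized Col-0, 12.39 in untreated oxMYB72 and 12.8 in colonized oxMYB72. AT1G26420 came closest in size, with WCS417 differences of 3.03 in Col-0 and 3.31 in myb72-2 and an untreated oxMYB72 excess of 2.95 over myb72-2. It read -0.89 with WCS417 in oxMYB72.

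For AT2G25150 they were AT4G11190 (r = 0.98), AT3G10720 (0.95), AT1G14960 (0.94), AT2G47550 (0.94) and ATPMEPCRB (0.94), a pectin methylesterase. AT4G11190 stood at 8.84, 8.53 and 8.68 in untreated Col-0, myb72-2 and oxMYB72 and at 10.49, 9.87 and 10.6 with bacteria, so its colonized myb72-2 mean was also the lowest of the 3. ATPMEPCRB had larger WCS417 differences, of 3.07, 3.39 and 4.13. Within groups, correlations of their deviations from the group means with those of AT2G25150 lay between 0.5 and 0.76. The genes were picked by correlation over these same arrays, so the within-group values follow in part from that choice.

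**Figure D4:**
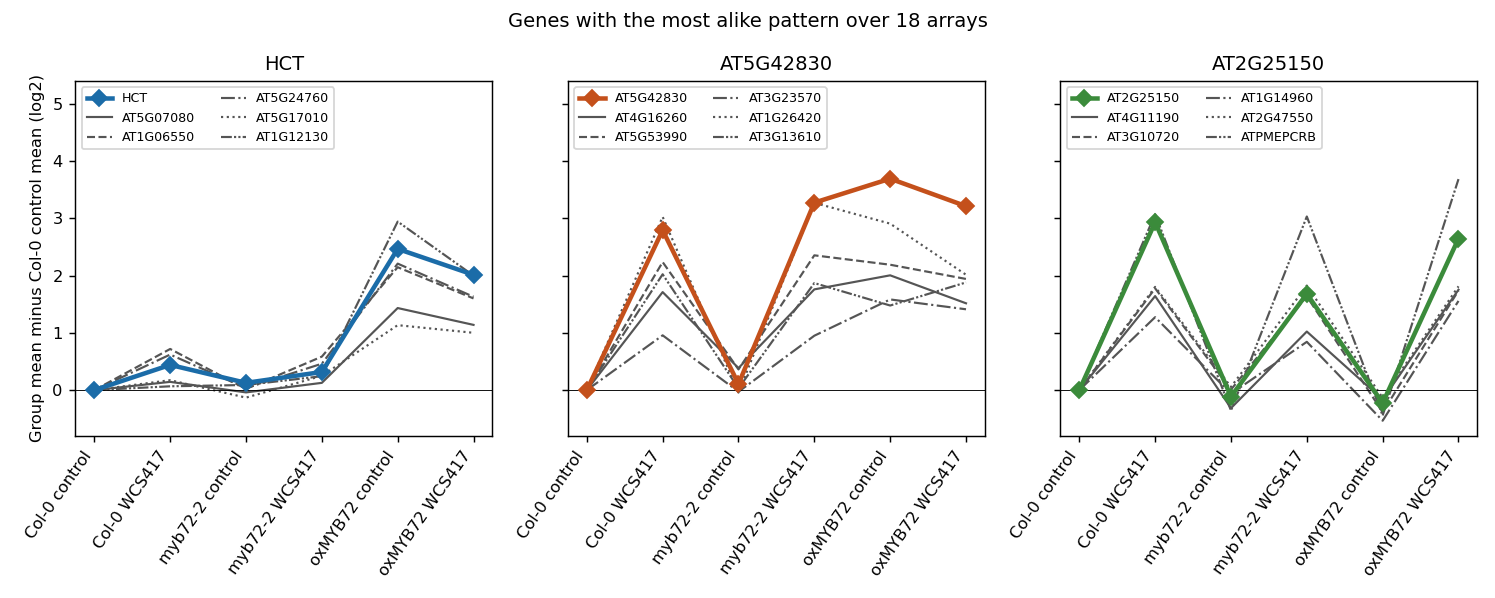
Group means minus the untreated Col-0 mean (log2) of HCT, AT5G42830 and AT2G25150 (thick lines) and of the 5 genes with the most alike pattern for each (thin lines), over the 6 groups. The HCT set is highest in untreated oxMYB72, the AT5G42830 set is low only in untreated Col-0 and myb72-2, and the AT2G25150 set is high in all colonized groups.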

How the data were processed

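Per the labels, 18 root samples were hybridised to Affymetrix ATH1 arrays. The authors deposited log2 values after RMA, a step named in the submitters' processing notes without a version; the log2 scale fits the range of the values. RMA equalises the distributions of arrays and so hides a shift common to most genes. Precision is limited by having 3 arrays per group.

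Of 22810 probe sets, 64 controls were dropped and 22746 tested. Platform annotation gave 1 gene for 13513, several for 503 and none for 8730; 13436 of the first matched a locus of a RefSeq table (TAIR10.1), which served for names and gene order. Titles gave the groups. Group means were estimated in limma 3.58.1 (R 4.3.3) from all arrays together with eBayes; 12 comparisons, two-sided, were adjusted by Benjamini-Hochberg over all tested probe sets, and called means an adjusted p under 0.05. Errors after ± are SE unless marked SD. Code was tested on simulated data.

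Members and lists were chosen with earlier results of these data known. Named are the members, up to 3 called genes per list, direction and comparison, and the 5 most alike genes per member; AT1G27620, AT5G07870, AT1G31490, SHT, SDT, SAMDC, SAMDC2 and DFR were added after their values were seen. The alternatives changed normalization (a second quantile step, or centring on array medians), variance moderation (trend, robust), the arrays entering the model, the dimmest 30% of probe sets, or the replicate number as block, and dropped single arrays. Plots used matplotlib 3.10.9 (Python 3.11.15). Sequences were not used here.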

Additional observations from a re-analysis of the deposited data

Results flagged for a closer look

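WCS417 effects of opposite direction between genotypes, with no overlap of arrays in either, were seen for HCT and AT5G42830. The share of all probe sets with such a pattern was not counted, so it cannot be called particular to these genes. For HCT the effect was 0.44 in Col-0 and -0.45 in oxMYB72, where untreated roots already stood at 13.12. For AT5G42830 it was 2.79 in Col-0, 3.17 in myb72-2 and -0.48 in oxMYB72, where untreated roots stood at 10.88 and the arrays of the 2 groups were separated by less than 0.001. These differences between genotypes were not tested, because comparisons with oxMYB72 were treated as used in the choice of the genes. Among the other BAHD genes limma called a difference between responses for AT1G28680, smaller in oxMYB72 than in Col-0 by -0.73 (adjusted p = 0.0145), and for BAT1, an acyltransferase related to brassinosteroids, larger in oxMYB72 than in myb72-2 by 0.62 (adjusted p = 0.0271). BAT1 lost that call under median centring (0.56, adjusted p = 0.0537), with only the arrays compared (adjusted p = 0.0854) and without 7 of the 12 single arrays.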

How the results depend on the processing

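With all arrays of the groups compared, other normalization, moderation and filters and a model of only the arrays compared left every call of HCT, AT5G42830 and AT2G25150 in the 5 tested comparisons in place. Replicate numbers showed no general pairing of the arrays. Deviations of same-numbered arrays correlated at -0.3 to 0.26, with a median of 0.0073 against 0.0029 for other pairs. Of 45 same-numbered pairs 12 exceeded 0.1, and 8 of 18 arrays correlated best with their own number. Whether part of the arrays were paired cannot be told from these values. With the replicate block, AT2G25150 in colonized myb72-2 against Col-0 was called (-1.25, adjusted p = 0.0482), and no other call of the 3 genes changed. Leaving out single arrays moved that difference from -1.57 to -1.07 (adjusted p from 0.0101 to 0.336), and the HCT difference in Col-0 from 0.35 to 0.54, with the call lost without Col-0 control replicate 1 (adjusted p = 0.0637). For the other BAHD genes, small counts moved. In untreated oxMYB72 against myb72-2 the 2 lower calls became 1 with median centring and 4 with only the arrays compared, and 0 to 1 without single arrays. In the colonized comparison the 4 higher and 3 lower became 1 and 0 with only the arrays compared, and the lower 1 to 6 without single arrays. With WCS417 in oxMYB72 the 6 higher became 3 with median centring and 3 with only the arrays compared, and without single arrays they ran from 3 to 5 and the lower from 4 to 8; in myb72-2 the higher ran from 3 to 9, and in Col-0 the lower from 4 to 7. Over all probe sets, median centring turned 2324 higher and 2067 lower calls with WCS417 in oxMYB72 into 1886 and 2487. The cause of these shifts was not tested.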
